A study of Arabidopsis thaliana with 12 samples.

Results

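Seedling cultures of Arabidopsis thaliana Col-0 that had been in oligomycin for 4 h were compared with cultures that had been in it for 1 h. The comparison used 6 of the 12 arrays of the study, 3 at each time, and followed the treated cultures themselves from the early to the later harvest. The wild-type seedlings had been grown in long days in shaken liquid medium with sucrose until day 9, kept in the dark for 24 h, and stayed in the dark while 10 µM oligomycin acted for 1 h or 4 h. The other 6 arrays came from cultures handled in the same way that received an equal volume of ethanol, 3 harvested at 1 h and 3 at 4 h. They showed what changed over the same hours without the inhibitor. All 4 groups thus shared the dark treatment and the sugar in the medium, and no array represents cultures before treatment. The labels call the 3 samples of a group biological replicates but do not say whether each came from its own flask. If they did not, the p-values measure technical spread only. Whole seedlings were pooled, so a lower value can come from fewer cells of a type or from less RNA per cell, which cannot be told apart.

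Oligomycin blocks the proton channel of the mitochondrial ATP synthase, so that protons no longer return through the enzyme and electron flow through the cytochrome pathway slows. Plant mitochondria also hold alternative oxidase and alternative NAD(P)H dehydrogenases, which pass electrons without pumping protons. Disturbed mitochondria signal to the nucleus, and a set of nuclear genes known as the mitochondrial dysfunction response is switched on by transcription factors that sit in the endoplasmic reticulum membrane until they are released. Cells short of usable energy are also known to reduce growth and ribosome production and to break down amino acids, proteins and organelles, in part through the SnRK1 kinase.

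Values are array intensities, given for each array or as mean ± SD (n = 3). Changes are differences between group means on the scale of log2(intensity + 16), given with their standard error where it is shown, and they understate the change of dim genes. "Rose" and "fell" are used only where the limma p-value was under 0.05 after Benjamini-Hochberg adjustment across the 22746 probe sets tested. Of these probe sets 13513 carried a single gene name, covering 13355 genes, and only those are named. Genes with a locus code in place of a symbol had no symbol in the tables used, and their role is given only where the gene table has a synonym or a list names it.

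The arrays of a group resembled each other closely. Correlations across probe sets were 0.988 to 0.991 among the 3 arrays of oligomycin at 1 h and 0.988 to 0.993 among those at 4 h, and 0.934 to 0.950 between the groups. The deposited values had a 2% trimmed mean of 100.01 in every array, so each intensity is relative to the other probe sets of its array. The median probe set was at 42.9 to 45 at 1 h in oligomycin and at 36.2 to 37.4 at 4 h, against 43.0 to 43.5 in ethanol at 4 h. Control measures moved with the same groups. The ratio of the 3′ to the 5′ control probe set of GAPDH was 1.13 to 1.22 at 1 h in oligomycin and 0.769 to 0.969 at 4 h, and in ethanol it was 1.13 to 1.25 and 0.963 to 1.06. The same ratio for actin was 15 to 16.4 at 1 h and 11.6 to 14.5 at 4 h in oligomycin, and 12.2 to 14.2 and 13.8 to 18.8 in ethanol. The 25S ribosomal RNA control was at 1810.9 to 2087.2 at 1 h and at 2409.3 to 2493.4 at 4 h, without overlap, where an exact two-sided permutation test gives p = 0.1, the smallest that 3 arrays against 3 allow. The part of these measures in the results was not tested. Rubisco activase (RCA), a leaf gene, and PYK10, a beta-glucosidase of root endoplasmic reticulum bodies, were both bright at 1 h, at 1126 ± 63.1 and 2880 ± 279, so that shoot and root tissue were both represented.

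Between 1 h and 4 h of oligomycin 2467 probe sets rose (10.8% of those tested) and 5195 fell (22.8%), together 33.7%. The falls were more numerous and the rises larger. Among the rises 877 reached a log2 change of 1, 192 a change of 2 and 40 a change of 3, whereas of the falls 443 reached 1, 13 reached 2 and none reached 3. The median change was 0.76 among the rises and -0.53 among the falls. In ethanol over the same hours 2 probe sets were called, 0.00879% of those tested, and both fell, the larger change being -1.47, although 2712 had an unadjusted p under 0.05. Without replicate 2 of ethanol at 1 h, 133 were called in ethanol.

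The balance of rises and falls depended on how arrays were put on one scale. The median of all changes was -0.09 in the values as deposited. When each array was centred on its own median it was 0.08, and 3947 probe sets rose and 2704 fell, so that 40.7% of the calls were falls against 67.8%. Under quantile normalization 57.5% were falls. Of the 7662 calls, 67.5% were made in the same direction after centring and 79.6% after quantile normalization. The direction of large changes was not affected by this, and all 212 genes named by the rule kept their sign under the alternatives tried, except that only 197 of them were tested when the dimmest probe sets were left out. Small changes of gene groups below are given with the count after centring where it differed by more than 1.5 times or where the median changed sign.

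**Figure D1:**
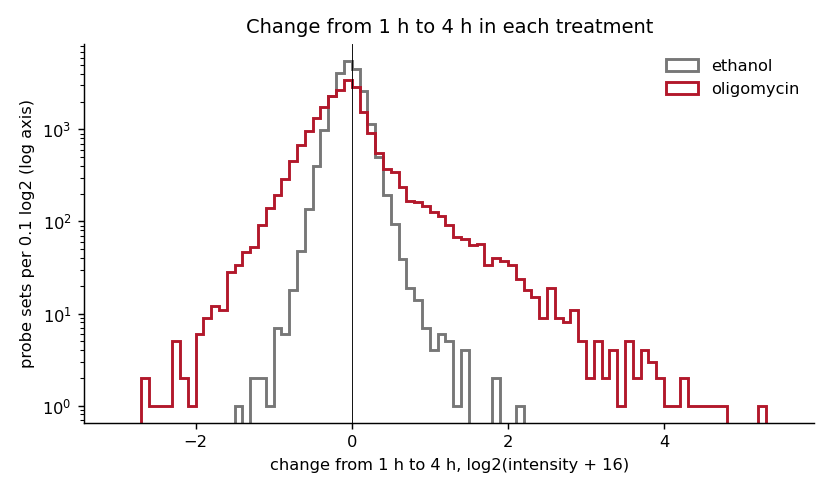
Number of probe sets (log axis) by change from 1 h to 4 h on the log2(intensity + 16) scale, in steps of 0.1, for ethanol (grey) and oligomycin (red). The oligomycin changes spread further on both sides and have a long right tail up to 5.22, where ethanol ends at 2.13.

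The largest rises began dim, while rises as a whole did not. The 192 probe sets that rose by 2 or more had a median intensity of 49.5 at 1 h and 474.9 at 4 h in oligomycin, with 29.3 and 32.8 in ethanol. The 443 that fell by 1 or more went from a median of 137.6 to 49.0, against 149.4 and 134.4 in ethanol. When all probe sets were split into 4 equal groups by their intensity in ethanol at 1 h, an array group not used in the contrast, the share that fell was 1.8%, 18%, 33.1% and 38.4% from the dimmest to the brightest group. The share that rose was 5.5%, 10.9%, 14.4% and 12.6%. Dim probe sets have less room to fall on this scale. The nuclear chromosomes differed little, with 9.1% to 10.2% of their named probe sets rising and 17.2% to 21.8% falling.

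The largest rise was that of AT2G20720. Its intensity was 35.8, 39.6 and 52.3 at 1 h in oligomycin and 2362, 1937.1 and 2158 at 4 h, a log2 change of 5.22 ± 0.23 (SE, adjusted p = 1.76e-08), and ethanol arrays lay between 1.8 and 27.8. Second was SBT3.5, a subtilisin-like serine protease of the secretory pathway. It was at 42.5, 37.2 and 51.1 at 1 h and at 1405.2, 1535.6 and 1556.5 at 4 h, a change of 4.67 ± 0.14 (adjusted p = 1.46e-09), with ethanol arrays between 17.5 and 34.5. AT1G57630 was near the bottom of the scale at 1 h, at 2.3, 1.8 and 1.6, and stood at 394.6, 324.9 and 458.4 at 4 h. In none of these genes did the groups overlap, which was also true of 46.5% of all probe sets in oligomycin and of 14.2% in ethanol, so it adds little for genes chosen as the largest changes. At 1 h in oligomycin AT2G20720 already stood 1.67 above ethanol (adjusted p = 0.000966), SBT3.5 stood 0.48 above it and AT1G57630 was level with it (-0.03).

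Further large rises were those of AT1G05340, from 61.4, 84.0 and 91.6 to 2013.2, 1758.3 and 1929.8, and of the loci AT1G26390 and AT1G26380. AT1G26390 went from 13.6, 9.8 and 13.1 to 497.3, 450.9 and 577.5, and AT1G26380 from 58.6, 62.3 and 71.8 to 1342.3, 1342.6 and 1407.2. The other 9 of the 15 largest rises, all without a symbol, changed by 3.18 to 4.04 and began at group means of 14 to 153.0. All 15 rose more in oligomycin than in ethanol when the difference between the changes was itself tested, with adjusted p-values of 4.89e-05 or less.

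**Figure D2:**
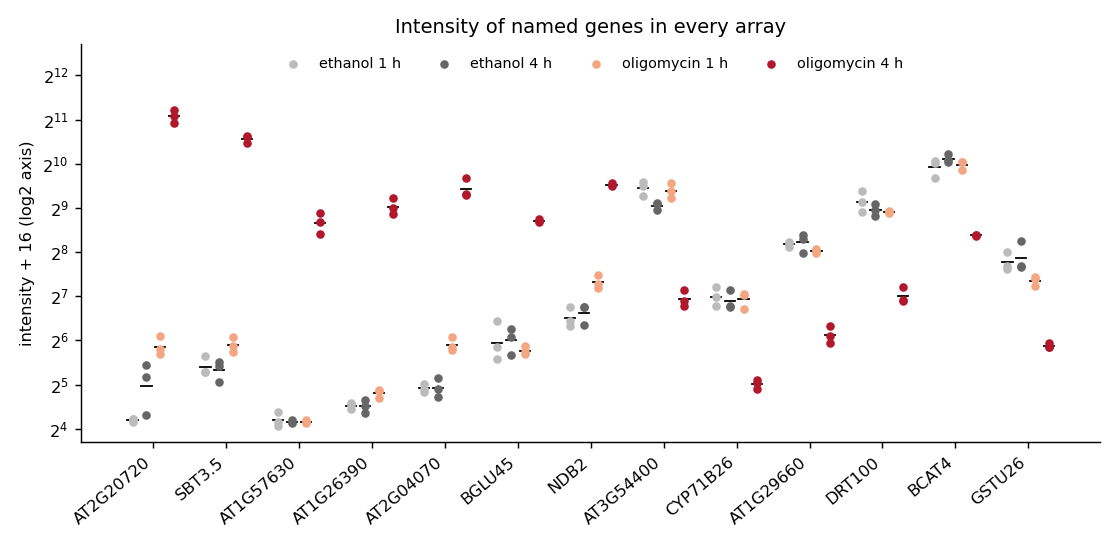
Intensity plus 16 (log2 axis) of 13 named genes in each of the 12 arrays, with 3 arrays per group and a bar at the mean of the log2 values. In the 7 genes at the left the oligomycin arrays at 4 h (dark red) lie above all other arrays, and in the 6 at the right they lie below all of them.

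The measured genes of the mitochondrial dysfunction response all rose, where 10.8% of all probe sets did. Of 28 genes listed 16 were measured, and all 16 rose, by 0.83 to 3.52 with a median of 2.14, while in ethanol their median change was 0.37 and none was called. Of the 16, 14 also differed from the change in ethanol, the exceptions being AT2G41730 (adjusted p = 0.922) and AT5G14730 (adjusted p = 0.065). The list was written with earlier results on these arrays known and gives no independent support to the direction. AT2G04070 was at 41.7, 39.2 and 51.2 at 1 h and at 801.3, 616.1 and 613.4 at 4 h, with ethanol arrays between 10.5 and 19.5. AT1G05060 was at 284.2, 260.6 and 392.7 and then at 2624.5, 2558.5 and 2610.8, from an ethanol range of 89.4 to 159.9. At 1 h 14 of the 16 already stood above ethanol, and the median of that difference was 1.21. At that time AT1G05060 stood 1.54 above ethanol and AT2G04070 0.98, and the 3 further hours added 3.01 and 3.52.

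**Figure D3:**
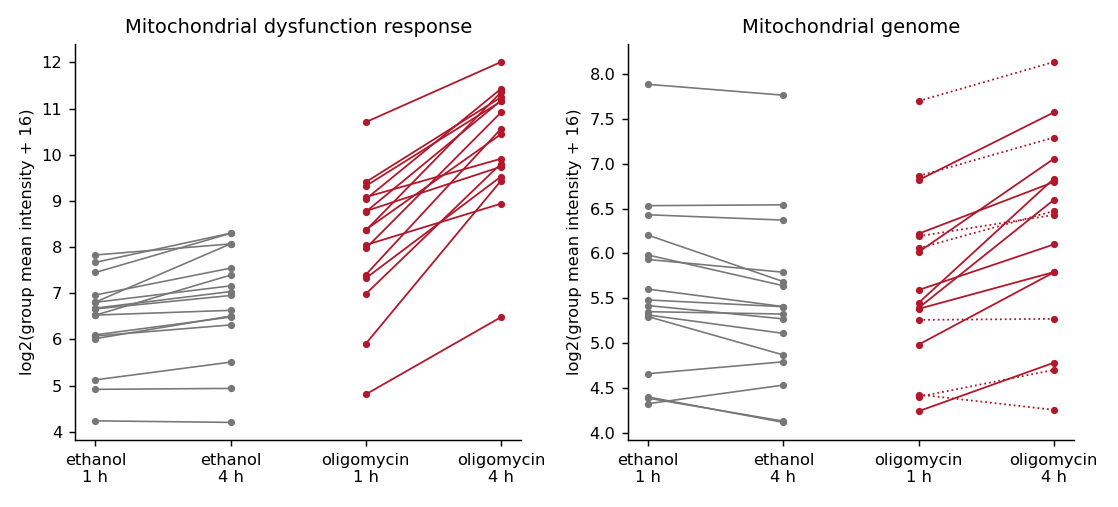
Group means on the log2(intensity + 16) scale for the 16 measured genes of the mitochondrial dysfunction response (left) and the 16 measured mitochondrial genes (right), 1 line per gene and treatment. Red lines are oligomycin, solid where the gene was called and dotted where it was not. On the left every red line climbs, and on the right 9 of 16 are solid and climb.

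Of the alternative respiratory enzymes 5 were measured, all type II NAD(P)H dehydrogenases of the inner mitochondrial membrane, and only some changed. NDB2, which faces the intermembrane space, was at 139.6, 130.7 and 163.0 at 1 h and at 741.6, 703.1 and 720.0 at 4 h, a change of 2.21 ± 0.14 (adjusted p = 2.29e-07). NDB4, a related enzyme, rose from 8.7, 13.4 and 14.1 to 67.1, 73.1 and 80.1 (1.68 ± 0.10). Ethanol arrays of NDB2 averaged 76.3 and 83.1 at the 2 times and those of NDB4 2.87 and 2.43. NDB3 was at 25.4 and then 41.4 on average (0.47, adjusted p = 0.032), a call lost without oligomycin 1 h replicate 2 or 3 or 4 h replicate 1 or 2. NDB1 was at 75.1 and 67.6 (adjusted p = 0.432). NDC1, which also occurs in plastids, was at 92.3 and 68.7 (-0.36, adjusted p = 0.030), and that call was lost under each rescaling and without any one array except 4 h replicate 1. Alternative oxidase was not analysed here.

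Transcripts of the mitochondrial genome rose in 9 of 16 measured cases. The other 7 did not pass the test and none fell, which made 56.2% rises against 10.8% of all probe sets, with a median change of 0.48 against -0.13 in ethanol, and 8 of them differed from their change in ethanol. The gene for cytochrome oxidase subunit 2, cox2, went from 30.7, 30.1 and 22.3 to 98.3, 100.9 and 94.9, a change of 1.39 ± 0.11 (adjusted p = 1.17e-06). The complex I subunit nad5 rose from 60.2, 49.5 and 36.5 to 121.6, 107.4 and 122.0, and another, nad6, from 40.6, 11.3 and 26.2 to 72.8, 79.9 and 89.8. Their ethanol means at 4 h were 39.4 and 13.2. For cox1, at 100.4 and 140.7 on average, the change of 0.46 did not pass the test (adjusted p = 0.149). Of 69 measured chloroplast genes none rose and 4 fell, 5.8% against 22.8% of all probe sets. Their median change was -0.10 in oligomycin and -0.24 in ethanol, and after centring it was 0.08, with 3 rises and 2 falls, while quantile normalization gave 11 falls. The 25S ribosomal RNA control, given above, was also higher at 4 h.

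The nuclear genes for the respiratory chain itself changed little. Of 43 measured subunits of complexes I to IV 1 rose and 4 fell, a smaller share than of all probe sets, and their median change was -0.06, or 0.11 after centring, when 5 rose and 2 fell. Quantile normalization gave 8 falls, and without oligomycin 1 h replicate 1 or 4 h replicate 3 there were 2 falls and no rise. The largest fall was that of AT3G06310, from 219.0 ± 2.50 to 143.1 ± 15.7 (-0.57, adjusted p = 0.00109). Of 7 measured nuclear ATP synthase subunits and ADP carriers, the enzyme that oligomycin blocks and its partners, 1 fell and none rose. That gene, AT2G19680, went from 248.8 to 192.0 (-0.35, adjusted p = 0.0134) and lost its call under centring, under scaling to the hybridisation controls, and without 1 h replicate 3 or 4 h replicate 1. The 6 genes that did not pass the test had changes of -0.23 to 0.06, and under quantile normalization 4 of the 7 fell. Of 16 genes for the tricarboxylic acid cycle and pyruvate dehydrogenase 1 rose and 3 fell, with a median of 0.01. These were 6.2% and 18.8%, against 10.8% and 22.8% of all probe sets. The one that rose was AT4G26910, from 375.2, 385.2 and 353.3 to 829.7, 642.7 and 814.4 (1.00 ± 0.12, adjusted p = 4.92e-05), and none of the 3 falls remained after centring.

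Glycolysis genes moved in both directions. Of 14 measured 4 rose and 4 fell, 28.6% each way against 10.8% and 22.8% of all probe sets, with none falling after centring and 2 falling without oligomycin 1 h replicate 2 or 4 h replicate 2 or 3. AT5G56350 rose from 481.2, 408.2 and 422.4 to 1328, 1063 and 980.0, a change of 1.32 ± 0.12 (adjusted p = 4.5e-06), and AT1G76550 from 553.3 ± 36.4 to 861.0 ± 60.2. Among 16 measured genes of fermentation and the hypoxia response 2 rose and 1 fell, 12.5% and 6.2%, so that the rises were near the share of all probe sets. AT4G17260 rose from 391.5, 389.9 and 464.7 to 1482, 1389 and 1509 (1.78 ± 0.17), against ethanol means of 152.6 and 183.1. PDC2, a pyruvate decarboxylase, was at 274.3 and 267.7 (adjusted p = 0.909). The median of this list was -0.03 in oligomycin, or 0.14 after centring, and 0.45 in ethanol, where none of the genes was called. AT3G27220 fell from 147.2 to 76.7 (-0.83, adjusted p = 0.00229), and 3 genes of the list had a change below that in ethanol. With the replicate block 1 gene of this list rose and 4 fell, and without oligomycin 1 h replicate 2 or 3 or any 4 h replicate 1 rose.

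Some genes that break down branched-chain amino acids and asparagine rose. Of 12 measured genes for leucine, isoleucine and lysine breakdown 6 rose and 3 fell, with a median of 0.25 against 0.14 in ethanol. Among all probe sets 10.8% rose and 22.8% fell, so the falls of this list were near the general share. After centring none of the 12 fell. Without oligomycin 1 h replicate 1 or 4 h replicate 3 there was 1 fall. ASPGB1, an asparaginase, went from 53.3, 62.3 and 78.0 to 166.0, 159.1 and 154.0 (1.14 ± 0.13, adjusted p = 3.54e-05). MCCA, the biotin-carrying subunit of methylcrotonyl-CoA carboxylase in leucine breakdown, went from 186.5, 170.9 and 244.5 to 407.5, 448.0 and 436.3. ETFQO, which passes electrons from these oxidations to ubiquinone, rose from 51.3 ± 7.30 to 117.0 ± 4.95 (0.99 ± 0.11), and IVD, isovaleryl-CoA dehydrogenase, from 210.3 to 382.8 (0.82 ± 0.14). The partner subunit of MCCA, MCCB, was at 228.7 and 178.3 (-0.33, adjusted p = 0.0119). The 2 subunits of one enzyme thus had opposite calls in the values as deposited, but not after centring, where no gene of the list fell. MCCB was chosen after its values were seen. So were the other genes that are given only for comparison, namely NDB1, cox1, PDC2, ATG8D, ATG8G, PUB22 and LHCB4.1. CRT1b and ATERDJ3B were chosen in the same way and are given below as examples of falls.

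A minority of autophagy genes rose. Of 17 measured 4 rose and none fell, against 10.8% rises among all probe sets, and after centring 8 rose, where 3947 of 22746 probe sets did. The risers included ATG8H and ATG8E, ubiquitin-like proteins that coat autophagosomes. ATG8H was at 121.1, 137.4 and 136.7 at 1 h, close to the ethanol group means of 127.2 and 151.5, and at 361.1, 354.9 and 315.0 at 4 h, a change of 1.28 ± 0.14 (adjusted p = 1.84e-05). ATG8E was already 2.12 above ethanol at 1 h, at 601.2, 636.6 and 819.0, and rose further to 1195, 1457 and 1454 (0.99 ± 0.18). ATG8D and ATG8G, at 143.1 and 108.1 at 1 h, changed by 0.10 and -0.18 (adjusted p = 0.554 and 0.253). Of 5 measured genes for SnRK1 and TOR signalling, AKINBETA1, a beta subunit of the SnRK1 kinase, rose from 239.1, 268.0 and 302.4 to 451.0, 488.3 and 431.9 (0.73 ± 0.10, adjusted p = 0.000112). The other beta-type subunits went the other way: AT4G16360 (KINbeta2) fell from 115.4 to 69.5 (-0.62) and AT2G28060 (KINbeta3) from 106.0 to 73.7 (-0.44). Of 4 measured sugar starvation markers 2 rose and 1 fell. AKINBETA1 was 1 of the risers, and AT3G15450 rose from 1431 ± 72.7 to 1947 ± 114. AT1G62510 fell from 77.5 to 51.7 (-0.47, adjusted p = 0.0156), a call lost after centring and under quantile normalization.

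Enzymes that conjugate foreign or reactive compounds moved in both directions within their families. Of 11 measured tau class glutathione transferases 2 rose and 5 fell. These were larger shares than the 10.8% of rises and 22.8% of falls among all probe sets. The excess was not tested, and that of the rises rests on 2 genes. GSTU25 rose from 455.2, 486.1 and 588.2 to 2899.1, 2634.5 and 2673.8 (2.40 ± 0.13, adjusted p = 9.87e-08), from an ethanol range of 71.7 to 127.6, and it also belongs to the mitochondrial dysfunction list. GSTU22 rose from 534.5, 706.4 and 692.0 to 1756.4, 1408.2 and 1601.1 (1.29 ± 0.16). Both had been higher than ethanol at 1 h, by 2.36 and 3.02. GSTU26 fell from 134.9, 156.7 and 152.5 to 42.0, 45 and 41.5 (-1.48 ± 0.15, adjusted p = 1.32e-05). GSTU20 fell from 780.7, 696.5 and 802.1 to 341.5, 310.2 and 339.2 (-1.16). Each of these 4 genes differed from its change in ethanol, as 17.8% of all probe sets did.

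The UDP-glycosyltransferases, which attach sugars to small molecules, gave 15 rises and 8 falls among 47 measured genes. These were 31.9% and 17.0%, against 10.8% and 22.8% of all probe sets. There were 4 falls after centring and 5 without oligomycin 4 h replicate 3. UGT73B4 rose from 97.8, 97.0 and 136.0 to 714.4, 659.2 and 712.0 (2.51 ± 0.14) and the related UGT73B5 from 157.3, 151.9 and 195.4 to 797.3, 645.6 and 771.1 (2.04 ± 0.13). UGT87A2 went from 270.0 to 1293 on average, and in ethanol it had a change of 0.93 that did not pass the test. UGT72E1, which acts on lignin precursors, fell from 143.6 to 65.0 (-0.98 ± 0.11). Of 23 cytochromes P450 4 rose and 4 fell, about the 33.7% called among all probe sets. CYP71B6 rose from 242.1, 188.2 and 211.1 to 1192, 1040.2 and 1118.7 (2.31 ± 0.15), while CYP71B26 fell from 115.3, 116.1 and 89.6 to 16.3 ± 2.13 (-1.92 ± 0.14, adjusted p = 7.65e-07). CYP71B34 of the same subfamily fell as well, from 71.8 to 29.8 (-0.94).

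Beta-glucosidases gave 5 rises and 2 falls among 20 measured, with 1 fall after centring or without oligomycin 4 h replicate 3. BGLU45 rose from 35.6, 37.3 and 42.5 to 412.8, 399.2 and 394.0 (2.94 ± 0.20, adjusted p = 3.68e-07), with ethanol arrays between 31.5 and 71.1. The related BGLU46 rose from 130.2 to 247.1 (0.86 ± 0.10). Both are known to act on glucosides of lignin precursors. CCR2, cinnamoyl-CoA reductase of lignin synthesis, rose from 24.4, 27.2 and 22.6 to 115.2, 150.5 and 137.4 (1.88 ± 0.18), and over the 10 measured phenylpropanoid and flavonoid genes there were 2 rises and 2 falls, with 1 fall after centring or without oligomycin 1 h replicate 2 or 4 h replicate 3. Among 7 subtilases 2 rose and 2 fell, 28.6% each way. The risers were SBT3.5 and its neighbour SBT3.3, SBT3.3 from 1.3, 1.3 and 1.0 to 86.3, 81.1 and 103.7 (2.62 ± 0.12). SBT1.3 fell from 212.1 to 119.3 (-0.76). The call of SBT4.12 (-0.48) was lost after centring, under hybridisation scaling and without oligomycin 1 h replicate 1 or 3 or 4 h replicate 1.

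**Figure D4:**
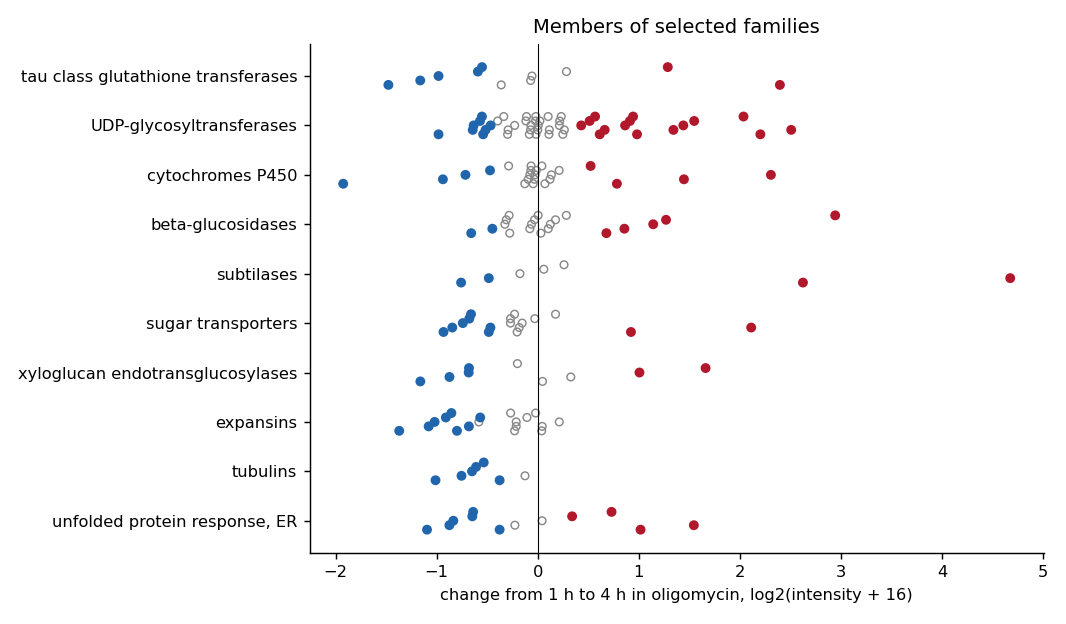
Change from 1 h to 4 h in oligomycin for every measured member of 10 families or lists, 1 point per gene. Filled points passed the test (red for rises, blue for falls) and open grey points did not, and vertical offsets within a row only separate points. Glutathione transferases, glycosyltransferases and the unfolded protein response hold points on both sides, and expansins and tubulins hold filled points on the left only.

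Genes that respond to touch, wounding or microbial elicitors rose in 10 of 17 measured cases (58.8%) and fell in none. Of all probe sets 10.8% rose and 22.8% fell. The median of the list was 0.81 against -0.001 in ethanol. CML37, a calmodulin-like calcium sensor, went from 9.0, 4.7 and 10.0 to 49.8, 63.9 and 65.9 (1.67 ± 0.13, adjusted p = 1.17e-06). WRKY6 rose from 86.8, 82.6 and 83.6 to 231.7, 354.9 and 323.6 and WRKY53 from 38.9, 39.0 and 32.4 to 145.5, 149.8 and 144.0, both transcription factors of defence and senescence. WRKY22 rose less, from 51.6 to 96.3 (0.73 ± 0.10), and no WRKY gene among the 6 measured fell. Of 9 plant U-box ubiquitin ligases PUB24 rose from 44.0 to 117.0 (1.15 ± 0.12) and PUB23 from 58.7 to 114.6 (0.81 ± 0.15), while PUB22, at 50.3 and 59.3, did not pass the test (adjusted p = 0.315). Of the salicylate and pathogenesis list all 3 measured genes rose, among them CHI from 47.0 to 158.7 (1.48 ± 0.24). GRX480, a glutaredoxin, rose from 80.0 to 162.1 (0.89), a call lost with a pseudocount of 1, and so was that of SAG101, which was also lost without 1 h replicate 1 or 2 or 4 h replicate 2 or 3. TET8, a tetraspanin, rose from 644.3, 855.1 and 652.2 to 2406.2, 2096.6 and 2295 (1.65 ± 0.15). Over 15 tetraspanins there were 2 rises and 4 falls, or 13.3% and 26.7%, near the shares of all probe sets. After centring there were 4 rises and 1 fall.

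Genes of the unfolded protein response moved in both directions. Among 12 measured genes 4 rose and 6 fell. Both were larger shares than the 10.8% of rises and 22.8% of falls among all probe sets, an excess that was not tested. BZIP60, a membrane-bound transcription factor of this response, rose from 643.9, 586.5 and 697.8 to 1271, 1247 and 1431 (1.02 ± 0.11, adjusted p = 1.73e-05), having been 1.77 above ethanol at 1 h. BZIP28, the other such factor, rose from 114.8 ± 9.87 to 200.9 ± 15.4 (0.73 ± 0.11) and had been level with ethanol at 1 h (-0.03, adjusted p = 0.936). AT3G44190 rose from 323.1 to 971.5 (1.54 ± 0.11). The falls included a pair of folding factors of the endoplasmic reticulum, both chosen after their values were seen. CRT1b, a calreticulin, went from 555.9, 578.5 and 516.6 to 317.1, 304.1 and 283.3 (-0.84 ± 0.09), and ATERDJ3B, a co-chaperone, from 327.7 to 204.1 (-0.65 ± 0.10). AT5G07340 and AT4G29520 fell by 0.87 and by 1.1 on the log2 scale, from 135.0 to 66.5 and from 136.3 to 55.7.

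Cytosolic heat shock proteins rose in 6 of 12 cases and fell in none, with a median of 0.76. Their median in ethanol was 0.48, and for none of the 12 did the difference between the changes pass the test, which does not show that they were equal. In those named by the rule the difference ranged from 0.46 for AT2G29500 (adjusted p = 0.671) to 1.32 for AT5G37670 (adjusted p = 0.0566). Hop3, a co-chaperone that links heat shock proteins, went from 105.4, 108.3 and 113.5 to 240.2, 242.1 and 218.3 (1.00 ± 0.19, adjusted p = 0.00124), against 124.4 and 168.9 in ethanol. AT5G37670 was at 31.6, 30.6 and 38.9 and then at 79.1, 205.9 and 164.2, a wide spread at 4 h. AT5G51440, of the mitochondrial dysfunction list, rose from 275.5, 325.4 and 347.3 to 1445, 1356 and 1329 (2.07 ± 0.24) and differed from ethanol (adjusted p = 0.0289). Of 9 measured proteasome genes 1 rose and 3 fell, and of 12 ubiquitin-specific proteases 5 fell, where 22.8% of all probe sets fell. After centring 1 gene of each list fell, and without oligomycin 4 h replicate 2 the falls were 1 and 3. Antioxidant enzymes gave 2 rises and 2 falls among 7, with 1 fall after centring. GR1, the glutathione reductase of cytosol and peroxisomes, rose from 394.0, 399.9 and 420.3 to 735.7, 801.0 and 852.9 (0.95 ± 0.08, adjusted p = 3.72e-06). GR, the form of plastids and mitochondria, was at 223.8 and 158.2 (-0.47, adjusted p = 0.00903), a call lost after centring. SAPX, an ascorbate peroxidase of the same organelles, fell from 367.0 to 211.0 (-0.76).

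Most measured genes of wall loosening fell, and so did most tubulins. Of 21 measured genes of wall loosening (expansins and xyloglucan endotransglucosylases) 13 fell and 1 rose, 61.9% against 22.8% of all probe sets, with a median of -0.68 against -0.14 in ethanol, and after centring 11 fell and 3 rose. EXPA8, an expansin, went from 52.4, 44.5 and 70.1 to 14.5, 13.3 and 7.1 (-1.37 ± 0.14, adjusted p = 1.43e-05), and EXLA1 from 192.5, 226.5 and 218.1 to 85.6, 92.1 and 98.4 (-1.08 ± 0.10). XTH16 fell from 185.5, 198.7 and 177.8 to 74.3, 80.6 and 69.9 (-1.16 ± 0.14). The exception was XTH18, which rose from 249.1, 436.3 and 443.8 to 1284.9, 1028.7 and 1264.7 (1.66 ± 0.20), whereas in ethanol it stood at 296.7 and 217.6. XTH29, in the same family but outside that list, rose by 1.01 ± 0.13 from a mean of 3.77. Of 18 expansins 8 fell and none rose, which was 7 and 2 after centring.

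Other wall gene families were tested as well. Of 32 genes listed under cellulose and pectin synthesis only 3 were measured, too few to describe either process, and all 3 fell. COB, needed for oriented cellulose deposition, went from 535.3, 686.9 and 541.1 to 291.4, 316.9 and 310.4 (-0.90 ± 0.11). CSLC04, which makes the backbone of xyloglucan and not cellulose or pectin, went from 339.4 ± 2.76 to 191.5 ± 7.17 (-0.78 ± 0.08). AT2G22900 went from 99.3 to 55.2 (-0.70). Of 15 glycosyl hydrolases of family 9, endoglucanases of the wall, 5 fell and none rose, led by GH9C2 from 173.3, 159.1 and 154.4 to 69.2, 47.5 and 50 (-1.33 ± 0.12). Trichome birefringence-like proteins, which acetylate wall polysaccharides, gave 6 falls and 1 rise among 22, with 3 falls after centring, and their 27.3% of falls was near the 22.8% of all probe sets. TBL25 fell from 219.7, 223.1 and 206.3 to 73.4, 63.4 and 52.7 (-1.56 ± 0.10), and TBL37 rose from 153.8 to 271.9 (0.76 ± 0.10). Of 7 tubulins 6 fell, with a median of -0.61 against -0.06 in ethanol. TUB7 went from 199.6, 237.4 and 230.2 to 96.1, 99.1 and 111.3 (-1.01 ± 0.12, adjusted p = 3.02e-05) and TUA6 from 1140, 1277 and 1140 to 697.2, 827.7 and 727.4 (-0.65). Of 15 IQ-domain proteins, calmodulin-binding proteins often found on microtubules, 7 fell and none rose, which was 5 and 2 after centring.

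**Figure D5:**
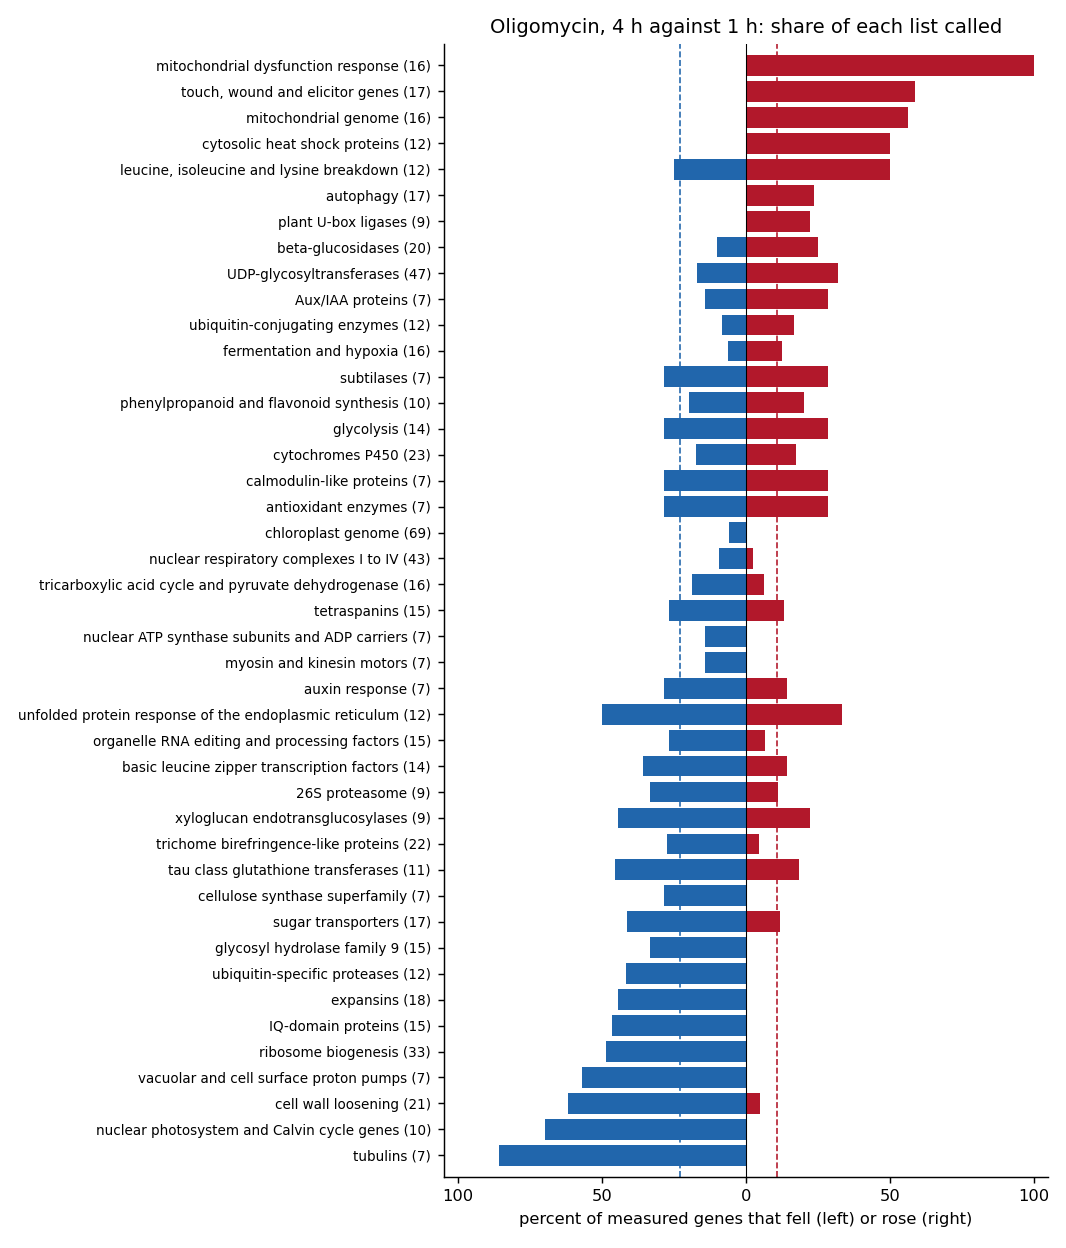
Percent of the measured genes of each list with at least 7 measured genes (number in brackets) that fell (blue, left) or rose (red, right) from 1 h to 4 h in oligomycin. The dashed lines mark all probe sets, 22.8% falls and 10.8% rises. The mitochondrial dysfunction response is at 100% rises and tubulins are at 85.7% falls.

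Among ribosome production and photosynthesis genes the falls were smaller, and fewer were called after centring. Of 33 measured ribosome biogenesis genes 16 fell and none rose, 48.5% falls against 22.8% of all probe sets, with a median of -0.33 against -0.02 in ethanol. After centring 5 fell, near the share of all probe sets (2704 of 22746), and the median was -0.15, and without oligomycin 1 h replicate 2 or replicate 1 the count was 8 or 10. AT3G15460 fell from 110.8, 111.0 and 92.9 to 51.3, 53.1 and 53.3 (-0.82 ± 0.10, adjusted p = 6.58e-05). Of 10 measured nuclear photosystem and Calvin cycle genes 7 fell and none rose, which was 3 after centring or after scaling to the hybridisation controls. LHCB4.2, an antenna protein of photosystem II, went from 827.8, 863.5 and 750.6 to 384.4, 376.2 and 376.6 (-1.07 ± 0.12), while its paralogue LHCB4.1, at 1705 and 1400 on average, did not pass the test (adjusted p = 0.156). PRK, phosphoribulokinase of the Calvin cycle, fell from 378.1 to 200.5 (-0.87 ± 0.13), and ATPC1, a subunit of the chloroplast ATP synthase, from 993.3 to 601.0 (-0.71 ± 0.11). All cultures were in the dark throughout, and in ethanol none of the 10 genes was called. Of 7 proton pump genes 4 fell, which was 1 after centring and 2 without oligomycin 1 h replicate 1 or 4 h replicate 2, among them VHA-A1 from 89.4, 86.4 and 78.7 to 42.3, 63.4 and 54.1 (-0.55).

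AT3G54400 had the largest fall of a named gene, from 647.1, 741.8 and 584.8 to 93.4, 103.6 and 124.8 (-2.45 ± 0.12, adjusted p = 4.77e-08), with ethanol at 687.1 and 514.5. DRT100, first isolated as a DNA damage tolerance gene, fell from 454.6, 468.7 and 464.9 to 131.3, 102.4 and 103.9 (-1.90 ± 0.13). BCAT4, an aminotransferase that starts the chain elongation of methionine for glucosinolates, fell from 1033.6, 911.6 and 1029.8 to 321.0, 311.4 and 318.2 (-1.60 ± 0.11), against 956.7 and 1096 in ethanol. AT1G73600, another of the 15 largest falls of named genes, fell by 1.88 on the log2 scale and had a change of -0.94 in ethanol that did not pass the test. Most of these 15 genes had stood level with ethanol at 1 h, and AT2G41800, at -0.44, was the one of the 15 that differed from ethanol by then (adjusted p = 0.0312).

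Sugar facilitators, hormone genes and tissue markers gave mixed pictures. Of 17 sugar transporters 2 rose and 7 fell, 11.8% and 41.2% against 10.8% and 22.8% of all probe sets. SWEET8 rose from 13.1, 11.7 and 8.9 to 114.5, 82.0 and 110.4 (2.11 ± 0.16) and SWEET2 from 39.0 to 87.7 (0.92 ± 0.17), while SWEET1 fell from 128.9 to 60.5 (-0.93) and SWEET17, a vacuolar fructose facilitator, from 208.1 to 108.9 (-0.85). GH3.17, which conjugates auxin to amino acids, fell from 131.2, 128.0 and 116.6 to 50.2, 44.5 and 49.4 (-1.14 ± 0.13), one of 2 falls and 1 rise among 7 auxin response genes, with 1 fall after centring or without oligomycin 4 h replicate 3. The dehydrin LTI30 rose from 115.2, 124.7 and 127.5 to 417.6, 448.0 and 478.4 (1.74 ± 0.12), and COR47, also a dehydrin, fell from 939.5, 1277 and 917.7 to 555.2, 508.3 and 539.2 (-0.93 ± 0.12). GI, a clock gene, fell from 127.4 to 73.2 (-0.69 ± 0.09). Root markers did not move together: PYK10 fell from 3130.8, 2579.2 and 2931.5 to 1604.1, 1686.0 and 1663.6 (-0.79 ± 0.09), and AT5G66390 (PRX72), a peroxidase, rose from 86.1 to 275.3 (1.52 ± 0.12). Of 5 root markers measured, 1 rose and 2 fell, and their summed intensity was 2813 to 3391.4 at 1 h and 2031.9 to 2092.3 at 4 h, against 2845.5 to 3147.4 in the ethanol arrays. PYK10 made up most of this sum, which therefore mainly repeats the change of that gene. After centring, or without oligomycin 1 h replicate 1, 1 of the 5 fell, and the part of tissue proportions in the other results was not tested. RCA, the 1 shoot marker measured, was at 1126 and 896.7 (-0.32, adjusted p = 0.0349), a call lost under centring, under hybridisation scaling and without any 1 of the 6 arrays.

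Neighbouring named genes were searched for runs of at least 3 that rose together. Pairs were not counted, and the number of runs to be expected by chance was not tested. Runs of at least 3 measured genes, no more than 5 places apart in the gene order and each up by 1 or more, numbered 4 and held 12 genes, and no run of falls of that size was found. The first held SBT3.5, AT1G32950 and SBT3.3, and another AT1G42980, BZIP60 and AT1G43000. The others held AT4G38540, AT4G38550 and AT4G38560, and AT5G64190, AT5G64230 and AT5G64250. The probe set of AT4G38550 ends in _s_at and may also detect relatives. On either side of BZIP60, AT1G42980 rose from 18.3 to 138.2 (2.17) and AT1G43000 from 16.2 to 175.2 (2.57). Gene spans differed slightly, with a median of 2361 bp for genes that fell, 2115 bp for those that rose and 2109 bp for all measured nuclear genes, and of 1818 bp for the 91 genes that rose by 2 or more.

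Set against the same hours in ethanol, the change in oligomycin differed for 4043 probe sets (17.8%), being higher for 1637 and lower for 2406. This contrast uses the same oligomycin arrays as the first. The most positive differences were those of SBT3.5 (4.75 ± 0.20), AT1G57630 (4.53), AT2G20720 (4.44), AT1G26380 (4.3) and AT1G26390 (4.23). The most negative were those of AT3G54400 (-2.05 ± 0.17), AT2G28080 (-1.99), AT5G28500 (-1.97), AT1G29660 (-1.95) and AT5G20700 (-1.86). AT2G28080 was at 258.5, 296.6 and 280.6 at 1 h and 68.8, 100.2 and 103.9 at 4 h in oligomycin, where in ethanol its means were 178.1 and 262.6.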

How the data were processed

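The 12 arrays are Affymetrix ATH1 expression arrays, 3 in each of 4 groups. The authors deposited 1 intensity per probe set and array in the series matrix, on a linear scale. The submitters' processing notes name RMA without a version. Deposited intensities hold zeros and have a 2% trimmed mean of 100.01 in every array, which is not the usual form of RMA output, so how they were made is unknown. Arrays give no read depth, and the number of arrays limits the precision.

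Of 22810 probe sets 64 controls were left out. A pseudocount of 16 was added, log2 was taken, and limma 3.58.1 in R 4.3.3 was fitted to all 12 arrays with 1 mean per group (lmFit and eBayes), so the groups share one estimate of spread. The threshold was a Benjamini-Hochberg adjusted p of 0.05 across 22746 probe sets. The contrasts were 4 h minus 1 h in oligomycin, the same in ethanol, and their difference. The fit was tested on simulated data.

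The platform table gave 1 gene for 13513 probe sets, several for 503 and none named here for 8730. Of the probe sets with 1 gene, 283 end in _s_at or _x_at and may also detect relatives. The gene table of the TAIR10.1 assembly was used for names, gene order and spans only. Genes were named by rule: the 15 largest called rises and falls, the 5 largest differences each way, and up to 4 called members of each list. The comparison, gene lists and families were chosen with earlier results of these data known. Alternatives were the pseudocount, normalization, filter on dim probe sets, variance model, replicate block, thresholds and leaving out each array.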

Additional observations from a re-analysis of the deposited data

Results flagged for a closer look

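The change from 1 h to 4 h differed between oligomycin and ethanol by a test of the difference itself (limma, adjusted over all probe sets), being higher in oligomycin for 1637 probe sets and lower for 2406. Among the genes named for this difference, the oligomycin change exceeded the ethanol change by 4.75 for SBT3.5, 4.53 for AT1G57630, 4.44 for AT2G20720, 4.3 for AT1G26380 and 4.23 for AT1G26390 on the log2 scale. The difference was -2.05 for AT3G54400, -1.99 for AT2G28080, -1.97 for AT5G28500, -1.95 for AT1G29660 and -1.86 for AT5G20700.

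The 25S ribosomal RNA control probe set, which no comparison of genes used, had a mean intensity of 2440.0 ± 46.4 (SD, n = 3) in oligomycin at 4 h, above the 3 ethanol arrays at 4 h, which averaged 1677.2 ± 124.7 and reached 1768.6.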

How the results depend on the processing

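With oligomycin, 2467 rises and 5195 falls were counted. Centring arrays on their medians gave 3947 rises and 2704 falls, scaling to the hybridisation controls gave 3429 falls, a threshold of 0.01 gave 3285 falls, and requiring a log2 change of at least 1 gave 877 rises and 443 falls. Quantile normalization gave 2913 rises and 3949 falls. Leaving out 1 array gave 2161 to 2267 rises and 4122 to 4634 falls. In ethanol, 2 probe sets were called. The count was 1 with a pseudocount of 1, the replicate block, centring, hybridisation scaling, a threshold of 0.01 or a log2 change of at least 1, 0 with only the 6 arrays compared, 4 with an intensity trend and robust prior, and 42 without the dimmest probe sets, and leaving out 1 array gave 0 to 133. The difference between the treatments gave 4043 calls, against 2388 with hybridisation scaling, 2197 at a threshold of 0.01, 1148 with a log2 change of at least 1, and 3227 to 4017 without 1 array. The cause of these shifts was not tested, beyond that stricter thresholds admit fewer probe sets.

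The labels do not say whether same-numbered arrays shared a culture batch. The deviations of same-numbered oligomycin arrays at 1 h and 4 h correlated at 0.021, -0.091 and 0.117, and those of ethanol arrays at 0.006, 0.167 and 0.11. Low values cannot show that no batch was shared. With the replicate block 2466 rises and 5114 falls were called in oligomycin, and 3901 probe sets for the difference. All 212 named genes kept their direction under the alternatives in which they were tested, and 165 also kept their call, the 2 stricter thresholds aside. Only 197 of the 212 were tested when the dimmest probe sets were left out. Changes of dim probe sets are limited by the pseudocount.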
